A study of Mus musculus with 12 samples.

Results

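The genes described here are 9 transcription factors of hepatocytes: Hnf4a, Foxa1, Foxa2, Foxa3, Cebpa, Cebpb, Nr1h4, Prox1 and Onecut1. They were chosen by name, out of 21883 protein-coding genes of RefSeq on the numbered chromosomes, X and Y (assembly GRCm38). R-loops, in which RNA is hybridised to its template DNA and the non-template DNA is left single-stranded, were mapped with S9.6, an antibody to RNA-DNA hybrids. The sources were HEPA1-6, a mouse hepatoma cell line, and the liver of C57/Bl6 mice, both wild type, untreated and labelled as hepatocyte. The labels give neither age nor sex of the mice. For each source, 2 immunoprecipitates, 2 immunoprecipitates treated with RNase H1 and 2 inputs were sequenced, and the peak names show 1 list per source, from merged immunoprecipitates compared with input. A gene was said to hold a peak when a called interval overlapped its body with 1 kb on both sides by at least 1 bp.

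These factors form a network that sets up and keeps the hepatocyte state. HNF4A, a nuclear receptor, and the FOXA forkhead proteins, which can bind closed chromatin, act on the enhancers of most liver genes, often together with the C/EBP leucine zipper proteins, and many of the factors act on each other's promoters. R-loops form mainly behind transcribing RNA polymerase, above all where the newly made RNA is rich in G, so that CpG-rich promoters and the ends of transcripts are common sites.

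There is 1 list per source, hence no spread between replicates and no test of any difference between the lists. The depth of the libraries is unknown, and a locus without an interval is one without a called peak at that depth. The HEPA1-6 list held 28717 peaks and the liver list 14908. The score of a peak is the authors' own, on an unstated scale, with a median of 21 in HEPA1-6 and 22 in liver. It is given with its percentile within its own list, and scores of the lists are set side by side without reading a change from them. Of 8 hepatocyte markers, Alb and Apob held a HEPA1-6 peak and Alb alone a liver peak. The Apob peak, with a score of 15, lay 300 bp outside the gene and counted through the flank only. None of 13 endothelial, macrophage and stellate cell markers held a peak in either list. Of 5 biliary markers, Sox9 alone held a peak, in both lists. Cell cycle genes had peaks at 9 of 10 in HEPA1-6 and at 7 of 10 in liver. The shares of all protein-coding genes are given below, and the cell content of neither source was tested. In a pooled list, hybrids in fewer cells and fewer hybrids per cell cannot be told apart.

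Of the 9 genes, 7 held a peak in HEPA1-6, against 42.0% of all protein-coding genes. The same 7 did so in liver, against 29.7%. In each list this is 77.8% of the 9 genes, with a 95% Wilson interval of 45.3 to 93.7%. The genes were chosen by name with earlier results of these data known, so the interval covers counting error only and is no test. Peaks in both lists were found at 27.8% of all protein-coding genes. These are 6075 of the 6489 genes with a liver peak, so most genes with a liver peak also held a HEPA1-6 peak. The genes with peaks were Hnf4a, Foxa2, Foxa3, Cebpa, Cebpb, Prox1 and Onecut1, and Foxa1 and Nr1h4 held none. Gene length differs widely in this set, from 1.518 kb (Cebpb) to 79.412 kb (Nr1h4). Of protein-coding genes within this range, 46.0% held a peak in HEPA1-6 and 31.8% in liver. Among the 5 genes under 11 kb, 4 held a peak in each list, against 31.0% (HEPA1-6) and 22.2% (liver) of all protein-coding genes under 11 kb. Among the 4 genes over 25 kb, 3 held a peak in each list, against 48.9% and 35.1%. In all, 27 HEPA1-6 and 15 liver peaks lay at these genes. The flank decided for 2 HEPA1-6 peaks: 1 lay 224 bp past the 3′ boundary of Foxa3 and 1 ended 562 bp before the 5′ boundary of Onecut1. Both genes hold other peaks inside their bodies, and widening the flank to 5 kb added no gene.

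**Figure D1:**
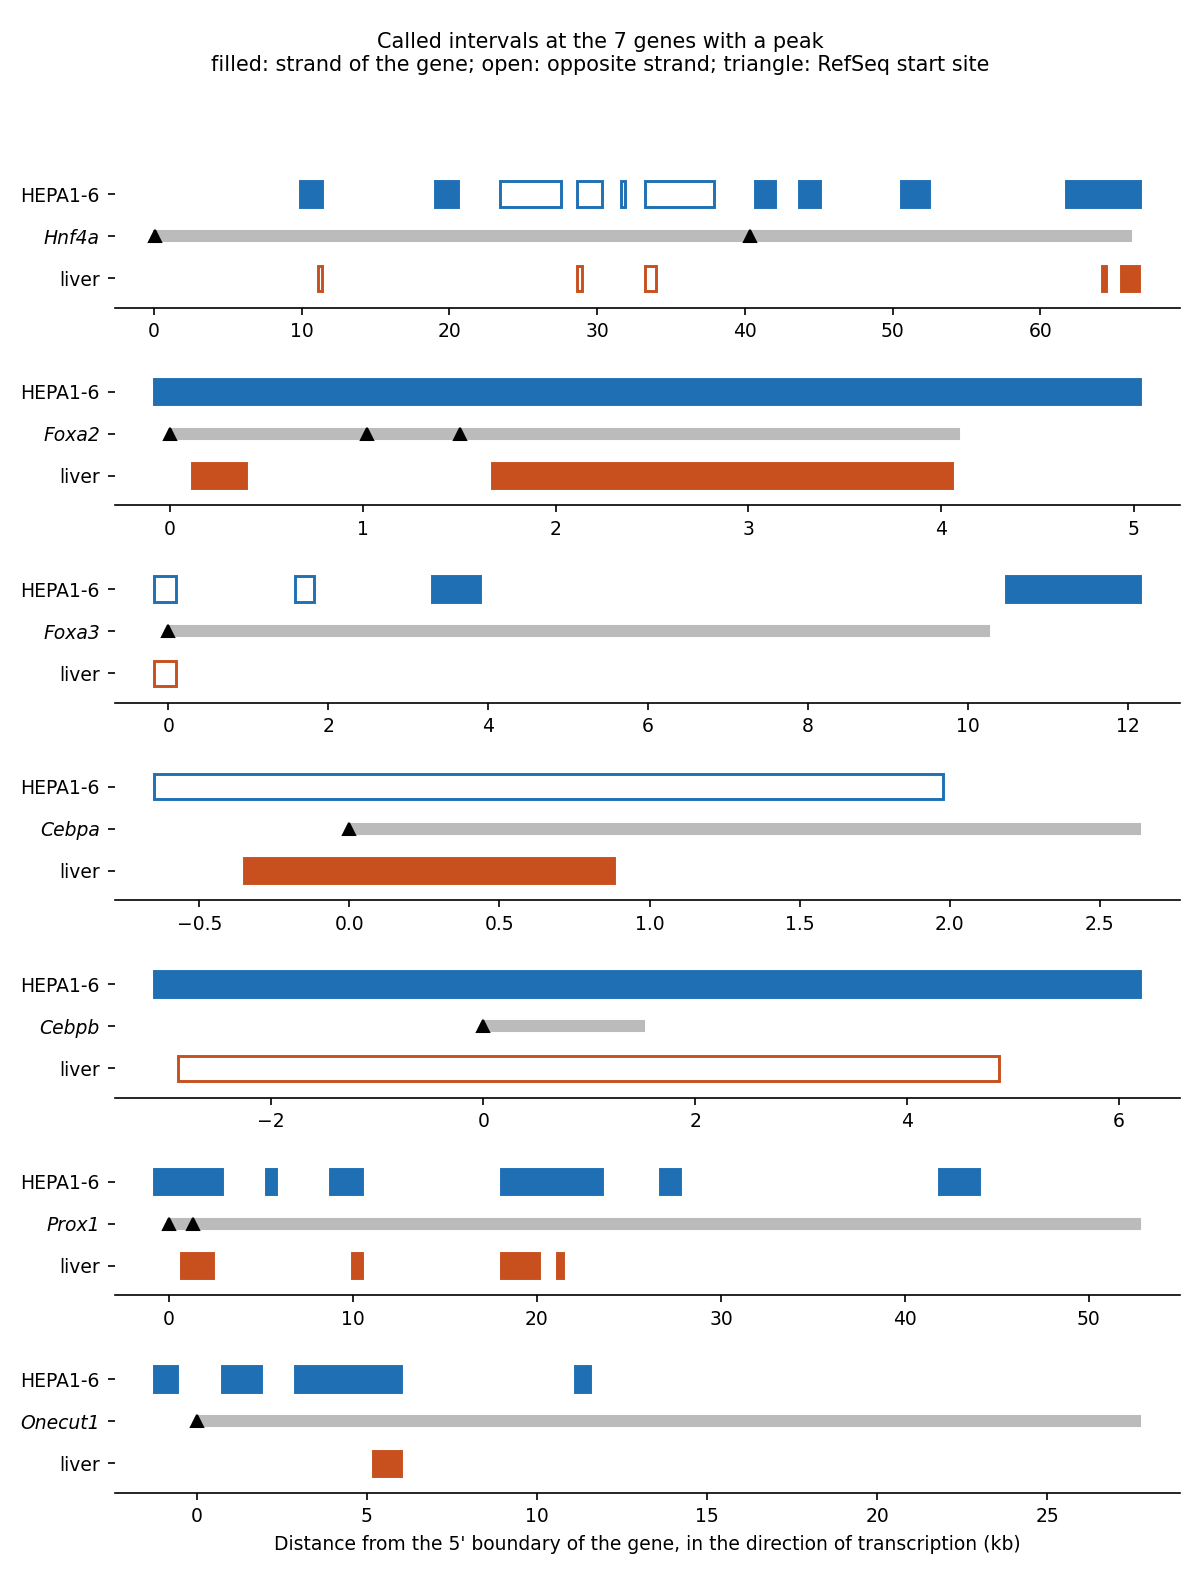
Called intervals at the 7 genes with a peak, drawn to scale for each gene, with the distance from the 5′ boundary in kb on the horizontal axis. Blue boxes are HEPA1-6 and orange boxes liver peaks, filled where the peak has the strand of the gene and open where it has the opposite strand. The grey bar is the gene, and triangles are RefSeq start sites. All 15 liver intervals lie within a HEPA1-6 interval.

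The FOXA genes encode pioneer factors, and the 3 paralogues differed in their peaks. Foxa2, at chr2:148042877-148046969 on the minus strand, lay wholly under a single HEPA1-6 peak of 5119 bp (chr2:148041935-148047053) with a score of 59, at percentile 93.3 of its list. The liver list held 2 peaks within that interval. A 2386 bp peak (chr2:148042913-148045298) scored 36, at percentile 81.7, and a 279 bp peak (chr2:148046577-148046855) scored 38, at percentile 83.8. All 3 peaks had the strand of the gene. The HEPA1-6 peak covered all 3 RefSeq start sites of Foxa2, whereas the liver peaks began 114 bp and 166 bp after the outermost and the innermost start site and covered none of its promoters. Peaks thus covered 100% of the gene in HEPA1-6 and 65.1% in the liver list, against medians of 15.4% and 5.84% over all genes with a peak. These medians are not matched for length, and Foxa2, at 4.093 kb, is shorter than its HEPA1-6 peak.

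Foxa3 (chr7:19013283-19023539, minus strand) held 4 HEPA1-6 peaks and 1 liver peak. At its 5′ boundary the same 282 bp interval, chr7:19023437-19023718, was called in both lists, with a score of 32 (percentile 76.9) in HEPA1-6 and 20 (percentile 43.9) in the liver list. It was the only pair of peaks at these genes with the same start and the same end. In both lists it was given the plus strand, opposite to Foxa3. The neighbouring gene Sympk, which encodes a scaffold of the mRNA 3′ end processing machinery, lies on the plus strand. Sympk begins 838 bp beyond the 5′ boundary of Foxa3, and the interval ends before Sympk begins and does not overlap it. Among the other HEPA1-6 peaks, a 242 bp peak in the gene (score 16) was also on the plus strand. A 605 bp peak (score 22) and a 1675 bp peak past the 3′ boundary (score 33) had the strand of the gene.

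The Foxa3 promoter is shown because an edge of this shared interval falls inside it. Capitals mark AAGCTT, the recognition site of the restriction enzyme HindIII (chr7:19023714-19023719). The sequence is RefSeq's, GRCm38.p6, chr7:19023490-19023789, minus strand.
Foxa3: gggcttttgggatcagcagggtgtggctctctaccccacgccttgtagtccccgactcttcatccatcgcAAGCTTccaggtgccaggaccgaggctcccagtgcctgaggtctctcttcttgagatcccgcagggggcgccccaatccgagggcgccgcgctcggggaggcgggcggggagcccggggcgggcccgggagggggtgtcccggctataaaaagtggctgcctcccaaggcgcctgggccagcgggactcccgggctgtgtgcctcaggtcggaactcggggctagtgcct

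The interval ended at base 19023718 in both lists, 1.5 bases from the centre of that site. The method that the labels cite for the extraction cuts genomic DNA with HindIII (AAGCTT), EcoRI (GAATTC), BsrGI (TGTACA), XbaI (TCTAGA) and SspI (AATATT), as background, while the labels themselves name no enzyme. These motifs, each the same on both strands and with no shared position required, were searched in all 32851 RefSeq promoters of 300 bases, of which 27.4% hold at least 1 and 7.45% hold AAGCTT. Of 792 HEPA1-6 peak edges inside these windows, 428 (54.0%) lay within 3 bp of the centre of a site of the 5 enzymes, and of 734 liver edges, 309 (42.1%). Such positions make up 0.687% of all positions in the windows. For BamHI (GGATCC), which is not among the 5 enzymes, 0 of 792 and 1 of 734 edges lay at a site, and 0.141% of positions do. Only Foxa2 had another edge inside a promoter window, the end of its HEPA1-6 peak, and that window holds no site of the 5 enzymes. Edges outside the promoter windows were not searched. Peak boundaries at these genes are given as deposited and are not read as the ends of a hybrid.

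Foxa1 (chr12:57540628-57548029, minus strand) had no peak in either list. The nearest peak lay 302 kb away in HEPA1-6 and 310 kb away in the liver list. Of the protein-coding genes without a peak, 75.5% in HEPA1-6 and 77.7% in the liver list lie closer to one. Its only promoter in the table, with a start site at 57546111 inside the gene, is rich in CpG and G. The promoters of Foxa1, without a peak, and of Foxa2 (innermost start site), under the HEPA1-6 peak, are given to compare them, with capitals marking runs of 4 or more G on the strand of the gene. They are RefSeq sequences of GRCm38.p6, chr12:57546062-57546361 and chr2:148045415-148045714, both minus strand.
Foxa1: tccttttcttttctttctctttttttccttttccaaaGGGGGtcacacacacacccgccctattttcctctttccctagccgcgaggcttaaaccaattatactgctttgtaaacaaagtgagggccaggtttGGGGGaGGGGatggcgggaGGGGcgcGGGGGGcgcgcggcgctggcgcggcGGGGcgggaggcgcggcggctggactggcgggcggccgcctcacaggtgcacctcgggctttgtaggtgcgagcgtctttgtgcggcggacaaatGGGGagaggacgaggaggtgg
Foxa2: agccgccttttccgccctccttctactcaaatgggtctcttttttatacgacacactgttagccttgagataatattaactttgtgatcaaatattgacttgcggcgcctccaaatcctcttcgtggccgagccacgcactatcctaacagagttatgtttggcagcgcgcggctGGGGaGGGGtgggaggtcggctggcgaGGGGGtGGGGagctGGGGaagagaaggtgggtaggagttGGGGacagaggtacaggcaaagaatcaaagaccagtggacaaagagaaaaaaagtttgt

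The Foxa1 promoter has 7 such runs and that of Foxa2 has 6. At least 1 GGGG is present in 72.5% of 21262 protein-coding promoters, searched on the strand of the gene, and CCCC, its match on the other strand, in 69.7%, and 5 or more runs of G are present in 12.1%. GC skew, the excess of G over C divided by their sum on the strand of the gene, was 0.198 for Foxa1 (percentile 89.6 of all promoters) and 0.213 for Foxa2 (percentile 91.3). The other 2 promoters of Foxa2, under the same HEPA1-6 peak, have 4 runs with a skew of 0.156 and 0 runs with a skew of -0.10, so that Foxa1, without a peak, lies at the upper end of the range among promoters of Foxa2.

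The C/EBP genes are short genes without introns, and each held a single peak in each list, over its start site. Cebpb, induced in the acute phase response and in regenerating liver, lies at chr2:167688915-167690432 on the plus strand. Its HEPA1-6 peak of 9309 bp (chr2:167685808-167695116) scored 77, at percentile 96.0, rank 1145 of 28717, the highest score and the widest peak at any of the 9 genes in HEPA1-6. The liver peak of 7747 bp (chr2:167686035-167693781) scored 35, at percentile 80.4, and lay inside it. Both peaks covered the whole gene and ran into A530013C23Rik, a long noncoding RNA gene that begins 327 bp past its 3′ boundary on the same strand. The HEPA1-6 peak had the strand of Cebpb and the liver peak the opposite one.

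The Cebpb promoter, which both peaks cover, has the highest GC content and the most CpG of the 13 promoters of these genes. Capitals mark runs of 4 or more G (RefSeq, GRCm38.p6, chr2:167688665-167688964, plus strand).
Cebpb: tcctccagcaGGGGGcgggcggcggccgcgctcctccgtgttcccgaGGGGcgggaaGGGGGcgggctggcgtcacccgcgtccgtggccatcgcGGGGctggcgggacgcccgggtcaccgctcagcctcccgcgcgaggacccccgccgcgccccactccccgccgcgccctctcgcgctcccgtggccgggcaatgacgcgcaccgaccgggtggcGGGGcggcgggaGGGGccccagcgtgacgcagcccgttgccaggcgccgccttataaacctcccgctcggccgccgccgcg

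Its GC content is 80.7%, at percentile 99.0 of protein-coding promoters, and it holds 50 CpG, 1.03 times the number its base content gives. Its GC skew is slightly negative, at -0.04.

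Cebpa, which drives metabolic genes of the mature hepatocyte and restrains its division, lies at chr7:35119293-35121928 on the plus strand. A HEPA1-6 peak of 2629 bp (chr7:35118642-35121270) and a liver peak of 1233 bp (chr7:35118942-35120174) both covered its start site. They covered 75.04% and 33.5% of the gene. Each scored 29, at percentile 71.8 and 70.8 of its list. The liver peak lay inside the HEPA1-6 peak and had the strand of the gene. The HEPA1-6 peak had the opposite strand, although no other RefSeq gene lies within 1 kb of Cebpa.

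Hnf4a and Nr1h4 encode nuclear receptors, and they are the longest genes of the set. Hnf4a (chr2:163506811-163572907, plus strand) held 10 HEPA1-6 peaks, the most of any of these genes, and 5 liver peaks. With 4 or more peaks, it stands beside Foxa3, Prox1 and Onecut1 in HEPA1-6, 4 of the 9 genes against 11.6% of all genes, and beside Prox1 in liver, 2 of the 9 genes against 3.57%. Foxa3 and Onecut1 reach 4 through 1 peak each in the flank. Without the flank, Hnf4a and Prox1 are left in both lists, 2 of the 9 genes, against 10.9% of all genes in HEPA1-6 and 3.16% in liver. With the flank, 23.3% of all protein-coding genes over 25 kb held 4 or more peaks in HEPA1-6 and 6.87% in liver. Among the 4 genes of the set over 25 kb, Hnf4a, Prox1 and Onecut1 did so in HEPA1-6, and Hnf4a and Prox1 in liver. At Hnf4a the HEPA1-6 scores ran from 12 to 39 and the widths from 292 to 4996 bp. Together these peaks spanned 23450 bp. In liver the scores ran from 13 to 39, and the peaks, of 272 bp and more, spanned 2837 bp together. The peak with the highest score began at the same base in both lists, chr2:163535450, with a score of 39 in each (percentiles 84.4 and 84.8). It was 1693 bp wide in HEPA1-6 and 342 bp wide in the liver list. The other 4 liver peaks stood at percentile 28.6 of their list or lower. HEPA1-6 peaks covered 34.5% of the Hnf4a body and liver peaks 3.47%.

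Hnf4a has an upstream start site, and a downstream start site that is known to be the main one in adult liver. The table of RefSeq promoters places them at 163506857 and 163547155. No peak covered either promoter in either list. In HEPA1-6 a peak of 1339 bp with a score of 34 (percentile 79.5) began 342 bp after the downstream start site. The nearest peak to the upstream start site began 9824 bp after it. In the liver list the nearest peak to the downstream start site lay 6336 bp before it.

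The strand of the peaks changed along Hnf4a. The gene is overlapped over 52.8% of its length by Hnf4aos, a long noncoding RNA gene on the minus strand (chr2:163493804-163541721). Over Hnf4aos lay 6 HEPA1-6 peaks, of which 4 were on the minus and 2 on the plus strand, and 3 liver peaks, all on the minus strand. Beyond it lay 4 HEPA1-6 and 2 liver peaks, all on the plus strand. A 4649 bp HEPA1-6 peak (chr2:163540076-163544724, score 27, minus strand) spans the 5′ boundary of Hnf4aos. The last HEPA1-6 peak (chr2:163568572-163573567, score 35) crosses the 3′ boundary of Hnf4a and contains the last 2 liver peaks (scores 17 and 14).

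Nr1h4, the receptor for bile acids known as FXR, lies at chr10:89454234-89533645 on the minus strand and had no peak in either list. The nearest peak was 105 kb away in HEPA1-6 and 214 kb away in the liver list, and 54.4% and 69.6% of the genes without a peak lie closer to one. At 79.4 kb it is the longest of the 9 genes. Its only promoter in the table has its start site at 89506658, inside the gene and not at its 5′ boundary. The sequence at that boundary was not examined. This promoter is printed as the lowest in GC content of the set, with capitals marking the single run of 4 G (RefSeq, GRCm38.p6, chr10:89506609-89506908, minus strand).
Nr1h4: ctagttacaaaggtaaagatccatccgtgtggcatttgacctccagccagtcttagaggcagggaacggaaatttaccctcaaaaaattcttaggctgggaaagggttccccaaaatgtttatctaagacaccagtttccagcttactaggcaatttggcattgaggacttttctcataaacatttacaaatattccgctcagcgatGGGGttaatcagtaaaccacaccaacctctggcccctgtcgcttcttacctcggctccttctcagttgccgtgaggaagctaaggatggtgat

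Its GC content is 45.7% (percentile 18.7), with 7 CpG. The Foxa1 promoter, also without a peak, holds 26 CpG at a GC content of 62.3%.

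Prox1 and Onecut1 encode homeobox factors of liver development. Prox1, needed for hepatoblasts to spread out of the liver bud, lies at chr1:190118035-190170827 on the minus strand and held 6 HEPA1-6 and 4 liver peaks. All 10 had the strand of the gene. At the 5′ boundary a HEPA1-6 peak of 3686 bp (chr1:190167958-190171643) scored 42, at percentile 86.5. Inside it a liver peak of 1707 bp (chr1:190168451-190170157) scored 32, at percentile 76.2. The HEPA1-6 peak covered both RefSeq start sites of Prox1 and the liver peak only the inner site. The highest HEPA1-6 score in the gene, 58 (percentile 93.0), belonged to a 1722 bp peak from 8.747 to 10.468 kb after the 5′ boundary. A 523 bp liver peak with a score of 34 (percentile 79.1) shared its edge at base 190160359. The highest liver score at any of the 9 genes, 41 (percentile 86.5), belonged to a 299 bp peak in Prox1 about 21 kb after the 5′ boundary. It lay inside a 5494 bp HEPA1-6 peak with a score of 35. The HEPA1-6 peaks that begin 5.254, 26.688 and 41.831 kb after the 5′ boundary had no liver counterpart. The peak at the 5′ boundary also overlaps Prox1os, a long noncoding RNA gene.

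Onecut1, also known as HNF6 and required in hepatocyte and bile duct development, lies at chr9:74861921-74889648 on the plus strand. It held 4 HEPA1-6 peaks with scores of 14, 17, 53 and 17 and 1 liver peak with a score of 22. Only the HEPA1-6 peak with a score of 53 (chr9:74864808-74867917, percentile 91.6) overlapped the liver peak (chr9:74867113-74867917, percentile 51.7), and both ended at the same base. All 5 peaks had the strand of Onecut1. None covered its promoter, although that promoter has a GC content of 73.0% (percentile 92.6) and 38 CpG. The peaks lay also over the long noncoding RNA genes Gm33562 (minus strand, 2 HEPA1-6 peaks) and Gm38678 (no strand given, 2 HEPA1-6 peaks and the liver peak). Their gene of origin is therefore uncertain.

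**Figure D2:**
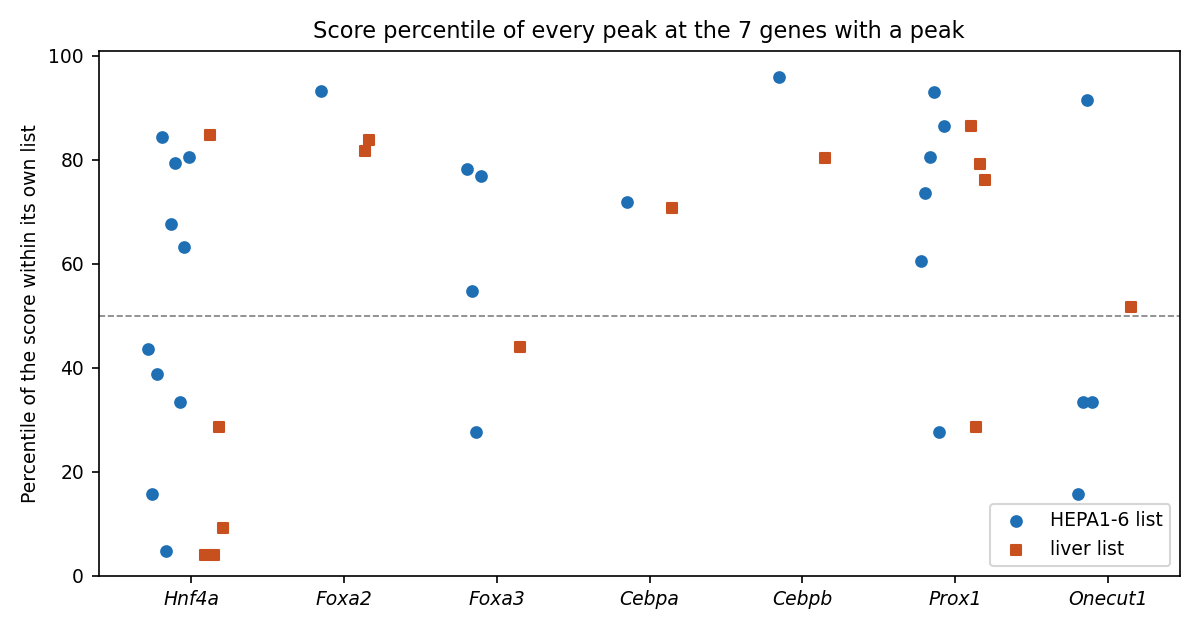
Score percentile of each peak within its own list (vertical axis) at the 7 genes with a peak (horizontal axis), for 27 HEPA1-6 peaks (blue circles) and 15 liver peaks (orange squares). The dashed line is the 50th percentile. In HEPA1-6, Hnf4a peaks spread from percentile 4.84 to 84.4, and the single peaks of Cebpb, Foxa2 and Cebpa stand at 96.0, 93.3 and 71.8.

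Across the genes, 17 of 27 HEPA1-6 peaks (63.0%) scored above the median of their list, as did 46.7% of all HEPA1-6 peaks. In the liver list these shares were 8 of 15 (53.3%) and 46.5%. No peak at these genes stood above percentile 96.0 in HEPA1-6 or percentile 86.5 in the liver list. The median width was 1675 bp in HEPA1-6 (1091 bp over the whole list) and 744 bp in the liver list (881 bp).

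Every liver peak at these genes overlapped a HEPA1-6 peak, which gave 15 pairs. Over the whole liver list, 75.9% of peaks did. The liver peak lay within the HEPA1-6 peak in 15 of 15 pairs, against 86.05% of all 11455 overlapping pairs in the lists. A start or an end at the same base was found in 7 of 15 pairs (46.7%), near the 46.1% over all pairs. Of the 27 HEPA1-6 peaks, 15 (55.6%) had no liver counterpart, against 68.2% of the whole HEPA1-6 list. Their median score was 17 and their highest 34, whereas the 12 HEPA1-6 peaks with a counterpart had a median score of 37. Over the whole HEPA1-6 list these medians were 18 and 34. With the HEPA1-6 list shortened by score to the number of liver peaks, 14 of the 15 pairs were left. Which of the 15 HEPA1-6 peaks lie below the threshold of the liver list was not tested.

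The authors' strand matched that of the gene in 20 of 27 HEPA1-6 peaks and in 10 of 15 liver peaks. Among peaks that overlap the body of a single gene, the match was 11 of 14 (78.6%) in HEPA1-6 and 9 of 10 (90.0%) in liver. Over all such peaks at protein-coding genes it was 93.9% and 91.8%. Of the 7 HEPA1-6 peaks on the opposite strand, 4 overlapped another gene, in each case Hnf4aos. Of the 5 liver ones, 4 did: 3 over Hnf4aos, and the Cebpb peak over A530013C23Rik, which has the strand of Cebpb. The rest were the Foxa3 and Cebpa peaks described above. Both lists gave the same strand in 12 of 15 pairs (80.0%, against 85.96% of all pairs with a strand in both). The 3 exceptions were the pairs at Cebpa and Cebpb and the first pair in Hnf4a. How the strand was given to a peak is not stated, so it was used as a label and not as a measurement of transcription.

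RefSeq promoters, from 250 bases before to 50 after a start site, were found for all 9 genes, 13 in all. A HEPA1-6 peak lay over a promoter of Foxa2, Foxa3, Cebpa, Cebpb and Prox1, 5 of 9 genes, against 20.4% of protein-coding genes with a promoter in the table. A liver peak did so at 4 of 9, without Foxa2, against 13.5%. CpG-rich promoters, with a GC content of at least 55% and a CpG content of at least 0.6 of that expected from the bases, were present at 7 of the 9 genes, the exceptions being Hnf4a and Nr1h4. For Nr1h4 and Foxa1 the only promoter in the table lies inside the gene, and the sequence at the 5′ boundary was not examined. Of all protein-coding genes with such a promoter, 66.3% held a HEPA1-6 and 47.6% a liver peak, and of those with none, 23.6% and 15.7%. Read against these shares, 6 of the 7 genes with a CpG-rich promoter held a peak in each list, Foxa1 being the exception. GC skew over all promoters had a median of 0.0139 with a HEPA1-6 peak and of 0.0160 without one. In liver these medians were 0.0204 and 0.0147. Among the 13 promoters GC skew ran from -0.10 to 0.21.

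**Figure D3:**
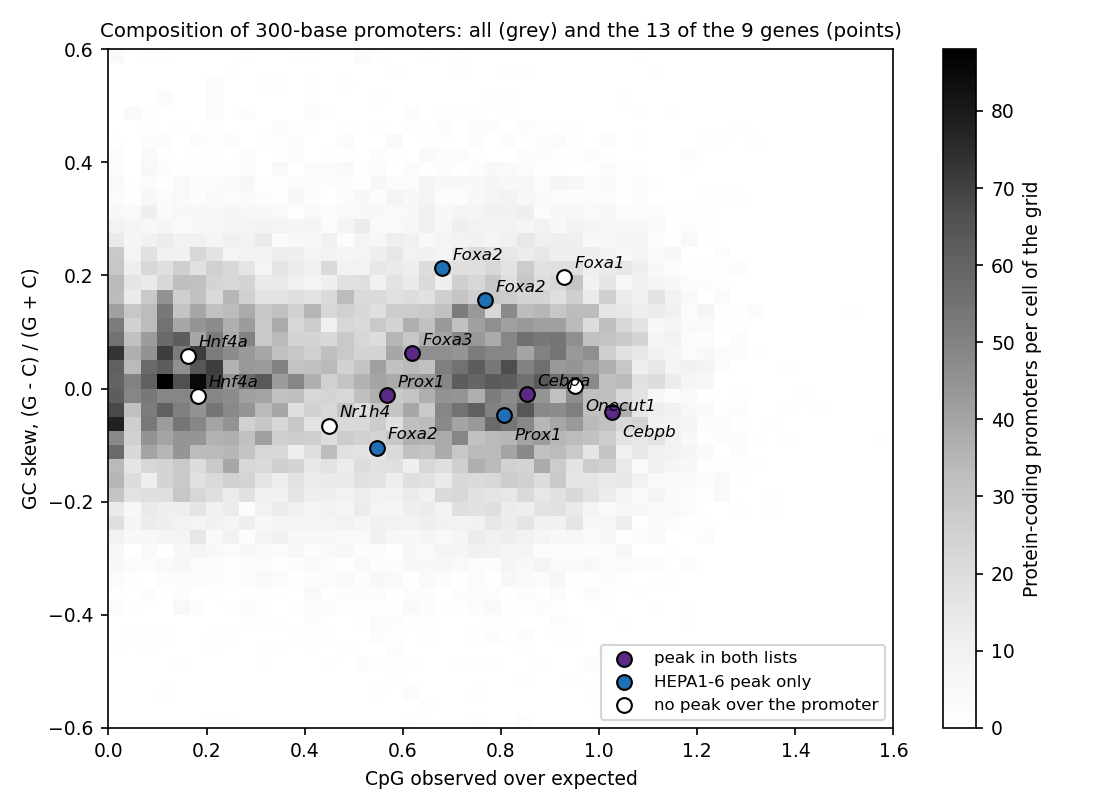
CpG observed over expected (horizontal axis) and GC skew on the strand of the gene (vertical axis) of promoters of 300 bases. Grey cells count all 21262 protein-coding promoters, and points are the 13 promoters of the 9 genes, purple where peaks of both lists cover them, blue where only a HEPA1-6 peak does and white where none does. Foxa1 and Onecut1, without a peak over the promoter, lie among CpG-rich promoters, as do Cebpa and Cebpb, which both lists cover.

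Lists of related genes were counted in the same way. Of 28 other transcription factors known in liver, 19 (67.9%, 95% Wilson interval 49.3 to 82.1%) had peaks in HEPA1-6 and 17 (60.7%, 42.4 to 76.4%) in liver, 16 of them in both lists. Both intervals lie above the shares of all protein-coding genes, 42.0% and 29.7%, which are not matched for length, and neither is a test. The highest scores in HEPA1-6 were those of Esrra, an orphan nuclear receptor of energy metabolism (138), and Xbp1, a factor of the unfolded protein response (100). In the liver list they were those of Esrra (67), Nr2f2 (61) and Xbp1 (59). Nr0b2, the FXR target known as SHP, held no peak in either list.

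Of 26 genes known as targets of these factors, among them albumin, apolipoproteins, enzymes of gluconeogenesis and of bile acid synthesis, 6 (23.1%, 11.03 to 42.1%) had peaks in HEPA1-6 and 3 (11.5%, 4.00 to 28.98%) in liver, against 42.0% and 29.7% of all genes. The HEPA1-6 interval includes the share of all genes and the liver interval ends just below it, but neither is a test. Apob counted in HEPA1-6 through a peak in its flank only. Of the 19 targets whose promoters are in the table and not CpG-rich, 5 (26.3%) held a peak in HEPA1-6 and 2 (10.53%) in liver, against the 23.6% and 15.7% of all such genes. The 3 with a liver peak were Alb, Apoa2 and Trf, the same as the highest-scoring genes in HEPA1-6, where Alb reached a score of 670 and Trf and Apoa2 reached 38 and 37. Among the 7 genes of bile acid synthesis and transport on the list, Slc10a1 (top score 27) and Cyp27a1 (14) held a peak, in HEPA1-6 only, and Cyp7a1, Cyp8b1, Abcb11, Slc51a and Slc51b held none in either list.

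Of 38 other forkhead genes, 12 (31.6%, 19.1 to 47.5%) had a peak in HEPA1-6 and 11 (28.9%, 17.0 to 44.8%) in liver. Both intervals include the share of all protein-coding genes, 42.0% and 29.7%, and neither is a test. The highest HEPA1-6 scores belonged to Foxp1 (118), Foxp4 (81) and Foxq1 (80), and the highest liver scores to Foxp1 (79), Foxp4 (76) and Foxk1 (60). Foxo1 is on this list and on that of the liver factors. Of 30 factors that define other tissues, such as Gata1 of red blood cells, Myod1 of muscle, Pax6 of eye and brain and Pdx1 of pancreas, 4 (13.3%, 5.31 to 29.7%) had peaks in HEPA1-6 and 3 (10.0%, 3.46 to 25.6%) in liver. These were Runx2, Pax2 and Pax5 in both lists and Sox10 in HEPA1-6, with scores of at most 36 and 33. Both intervals of these lineage factors end below the shares of all protein-coding genes, and neither is a test. A CpG-rich promoter was found at 13 of these 30 genes, and 2 of the 13 held a peak in each list, against 6 of 7 among the hepatocyte factors. Among other liver factors 6 of 9 such genes held a HEPA1-6 and 7 of 9 a liver peak, and among other forkhead genes 7 of 14 and 5 of 14. In each list 0 of 1 target and 0 of 4 markers of other liver cells did. Over all protein-coding genes with such a promoter the shares were 66.3% and 47.6%. Of 18 markers of other liver cells, Sox9 of bile duct cells was the only gene with a peak, in both lists (scores 37 and 19). The intervals cover counting error only, and the lists differ in median gene length, from 4.393 kb (other forkhead genes) to 26.422 kb (other liver factors), against 10.257 kb for the 9 genes.

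**Figure D4:**
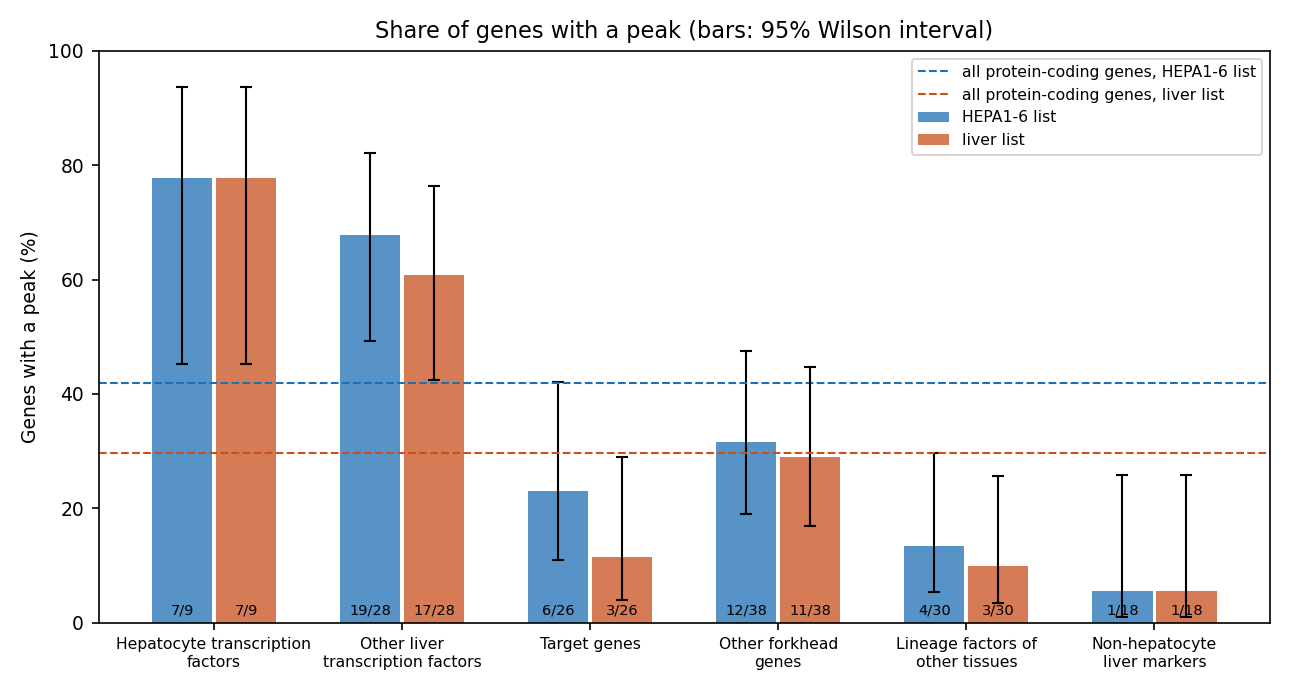
Share of genes with a peak (vertical axis, percent) in the 9 hepatocyte transcription factors and in 5 related lists (horizontal axis), in HEPA1-6 (blue) and in the liver list (orange). Error bars are 95% Wilson intervals, the numbers are genes with a peak of genes in the list, and dashed lines are the shares over all protein-coding genes, 42.0% and 29.7%. Bars for the hepatocyte factors and the other liver factors stand above these lines. Those for targets, other forkhead genes, lineage factors of other tissues and markers of other liver cells stand below. The liver bar of the other forkhead genes, at 28.9%, is only just below its line.

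Cebpb had the highest score percentile in HEPA1-6 among the 9 genes. By the distance between the top score percentiles in both lists, the 3 nearest of 6074 other protein-coding genes with peaks in both were Gtpbp6, Plcxd1 and Txnrd3, at distances of 0.301, 0.301 and 0.355 percentile points. Gtpbp6 and Plcxd1 are neighbours under the same peak, which was called at the same interval in both lists (chr5:110101907-110108592, scores 81 and 35). Txnrd3 had scores of 73 and 35. The likeness is over 2 values per gene, and 11 genes lay within 1 percentile point.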

How the data were processed

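R-loops were mapped by S9.6 immunoprecipitation of genomic DNA in 12 libraries, 6 groups of 2. Per the submitters' processing notes, mm10 was the build, and CASAVA 1.8.2, cutadapt, Bowtie2, bedtools, SAMtools and MACS2 were used, with no role or setting given. Per the peak names, each deposited list sets a merged immunoprecipitate against an input. The authors deposited a score for each peak, in whole numbers from 10 up, and gave no scale. Other values, that is positions and strand, were used as deposited and are printed 1-based. Values of single libraries and of those treated with RNase H1 were not analysed here, so depth and the effect of RNase H1 are unknown.

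Peaks were intersected with RefSeq genes (GRCm38.p6, deduplicated by gene) and promoters in Python 3.11.15 with pandas 2.3.3. Score percentiles use mean ranks for ties. A CpG-rich promoter had at least 55% GC and at least 0.6 of the expected CpG. Edges within 20 bases of a window's ends were left out of the search for sites. Wilson intervals were computed with scipy 1.17.1. The interval code was tested on simulated data. No test was run, since each source has 1 list. Named were the 9 genes whatever their values, the 3 highest-scoring genes of each related list, of which 1 is not reported here, and the 3 genes most like the highest member. The markers, Nr0b2, the bile acid genes and the lineage factors were named besides, after their values were seen. The members and lists were chosen with earlier results of these data known, and the cell cycle genes and the search for enzyme sites were added after seeing the data.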

Additional observations from a re-analysis of the deposited data

How the results depend on the processing

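Over 16 counts and 49 alternative values, 43 stayed within 1.5 times the reported count. Some settings could move a count in 1 direction only or not at all, so the 43 is no measure of stability. No peak at these genes lacked a strand, a wider flank can only add peaks, and shortening HEPA1-6 leaves the count in liver as it is. Counting only peaks on the strand of the gene left 4 genes with a peak in both lists instead of 7, as Cebpa was lost in HEPA1-6 and Foxa3 and Cebpb in the liver list. Of 15 overlapping pairs, 2 remained, those at Foxa3 and Cebpb, when 50% of both peaks had to overlap, and 8 in the higher-scoring 50% of each list. In that part of the liver list, 1 lineage factor of other tissues held a peak instead of 3, and 0 markers of other liver cells instead of 1, and Foxa3 and Onecut1 were lost. Without peaks that overlap another gene, 5 of the 9 genes held a peak in each list, without Cebpb and Onecut1. For the settings by strand, score and other genes, the shares of all protein-coding genes were not counted. Whether the 9 genes differ from all genes under these settings is therefore not known. Without the flank, a setting chosen after seeing the data, 2 of the 9 genes instead of 4 held 4 or more HEPA1-6 peaks. Shortening HEPA1-6 to the length of the liver list left all 7 genes with a peak.

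No paired analysis was possible because the files hold 1 pooled list per source. No replicate was left out for the same reason. The unknown depth limits each statement on an absent peak.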
